A study of Mus musculus with 2 samples.

Results

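The insulin-like growth factor (IGF) axis was examined through 10 genes, the ligand Igf1, the receptors Igf1r and Insr and the binding proteins Igfbp1 to Igfbp7. They were chosen by name, and each was represented by the brightest transcript cluster of the array annotated to that gene symbol alone. All 10 were measured, out of 19938 genes with such a cluster. RNA came from sorted cardiac neural crest cells of mouse embryonic hearts at stage E14.5, hybridised to 2 Affymetrix Mouse Gene 1.0 ST arrays. The control sample was Adam19+/+ and the mutant sample Adam19-/-, where Adam19 encodes a membrane-anchored metalloprotease. Both samples carried Wnt1-Cre and the R26tdTomato/+ reporter on a C57BL/6 background. Wnt1-Cre is active in the neural crest, so the tdTomato-positive cells collected by flow sorting should be mainly neural crest descendants of several kinds. The purity of the sort was not tested, and no Cre-free or reporter-free sample was analysed here. The number of embryos per sample is unknown here. Since each genotype had a single array (n = 1), no spread could be estimated and no test made, and each difference compares 1 sample with 1 other.

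IGF1 and IGF2 are small secreted growth factors that act mainly through the receptor tyrosine kinase IGF1R, while the related insulin receptor binds insulin and, in one splice form, IGF2. The binding proteins IGFBP1 to IGFBP6 hold IGFs with high affinity outside the cell, where they can block, store or deliver the ligand, and proteases release it by cutting them. IGFBP7 is a related secreted protein with low affinity for IGFs. In the developing heart, IGFs made by the epicardium and mesenchyme are known to promote growth of the muscle wall.

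The binding-protein genes hold pairs of neighbours. In the gene table of the GRCm38.p6 assembly Igfbp1 and Igfbp3 lie side by side on chromosome 11 and Igfbp2 and Igfbp5 on chromosome 1, with 0 protein-coding genes between the members of each pair. Chromosome 11 also carries Igfbp4 and Adam19 itself. The 250 bases before the annotated start are shown for the 2 members with the largest differences between the arrays, Igfbp2 and Igfbp3, and for Igfbp1, the neighbour of Igfbp3 whose promoter is a textbook example of control by insulin. The sequences are from RefSeq, build GRCm38.p6, written 5′ to 3′ on the strand of the gene. Igfbp2 is at chr1:72824230-72824479 on the plus strand (the more upstream of 2 annotated starts), Igfbp3 at chr11:7213924-7214173 on the minus strand and Igfbp1 at chr11:7197537-7197786 on the plus strand. Capitals mark matches on either strand to ACGTG or GCGTG (the core of hypoxia-response elements), CAAAACA (a core of insulin-response elements), TATAAA (the TATA box) and GGGCGG (the GC box).
Igfbp2: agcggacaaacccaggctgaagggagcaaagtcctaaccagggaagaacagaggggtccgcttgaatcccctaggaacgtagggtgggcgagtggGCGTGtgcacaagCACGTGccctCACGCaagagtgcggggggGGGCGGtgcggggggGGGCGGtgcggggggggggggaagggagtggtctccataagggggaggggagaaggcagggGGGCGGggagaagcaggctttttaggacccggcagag
Igfbp3: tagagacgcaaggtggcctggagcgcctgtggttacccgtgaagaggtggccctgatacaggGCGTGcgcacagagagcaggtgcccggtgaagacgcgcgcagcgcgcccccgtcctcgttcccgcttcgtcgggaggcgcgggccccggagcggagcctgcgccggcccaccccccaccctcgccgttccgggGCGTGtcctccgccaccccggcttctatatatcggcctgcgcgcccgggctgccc
Igfbp1: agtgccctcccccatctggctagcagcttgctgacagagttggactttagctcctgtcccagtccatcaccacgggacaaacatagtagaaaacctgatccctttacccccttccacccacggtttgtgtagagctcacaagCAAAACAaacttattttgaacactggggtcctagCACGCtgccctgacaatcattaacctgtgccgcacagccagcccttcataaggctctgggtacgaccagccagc
Igfbp2 held 4 matches to the hypoxia-response core, 2 of them the strands of a single CACGTG, and 3 GC boxes. Igfbp3 held 2 hypoxia-response cores, starting 188 and 55 bases before the annotated start. Igfbp1 held 1 hypoxia-response core and, 108 bases before its start, the only CAAAACA among the members. The table had promoters for 9 of the 10 members, and 6 of the 9 held a hypoxia-response core in at least 1 window, against 38.6% of all 32851 promoter windows of the same length. CAAAACA was found in 5.56%, TATAAA in 12.4% and GGGCGG in 32.7% of those windows. The member figure counts genes and the background counts windows. Windows with a hypoxia-response core were rich in GC for Igf1r (77.6%), Igfbp7 (74%), Igfbp3 (73.2%) and Igfbp2 (67.2%). Those of Igf1 (52.8%) and Igfbp1 (53.2%) lay near the median of all windows, 52.4%. Whether the members differ from windows of like GC content was not tested. TATAAA was found in the windows of Igfbp4 and Igfbp6. The second Igfbp2 window held none of the 4 motifs. A match describes the letters and not a bound site.

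Before the members, the labels and the makeup of the samples were checked. Adam19 had a log2 signal of 11.62 with the Adam19+/+ label and 9.77 with the Adam19-/- label, 3.60-fold lower and the largest decrease of all 19938 genes, in the direction of the labels. All 9 smooth muscle, 11 valve and fibrous mesenchyme and 10 autonomic neuron markers measured had a mean signal above the median of all genes (8.01), as did 7 of 8 Schwann cell and glial markers. Among markers of cells mainly outside the Wnt1-Cre lineage, 10 of 14 cardiomyocyte and 4 of 13 macrophage and leukocyte markers lay above that median. So did 6 of 10 endothelial, 5 of 10 epicardial and 2 of 4 erythroid markers, and RNA of such cells in the samples was therefore not excluded. The median array signal was 7.49 and 7.52, and the median difference of all genes was 0.0061 on the log2 scale.

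**Figure D1:**
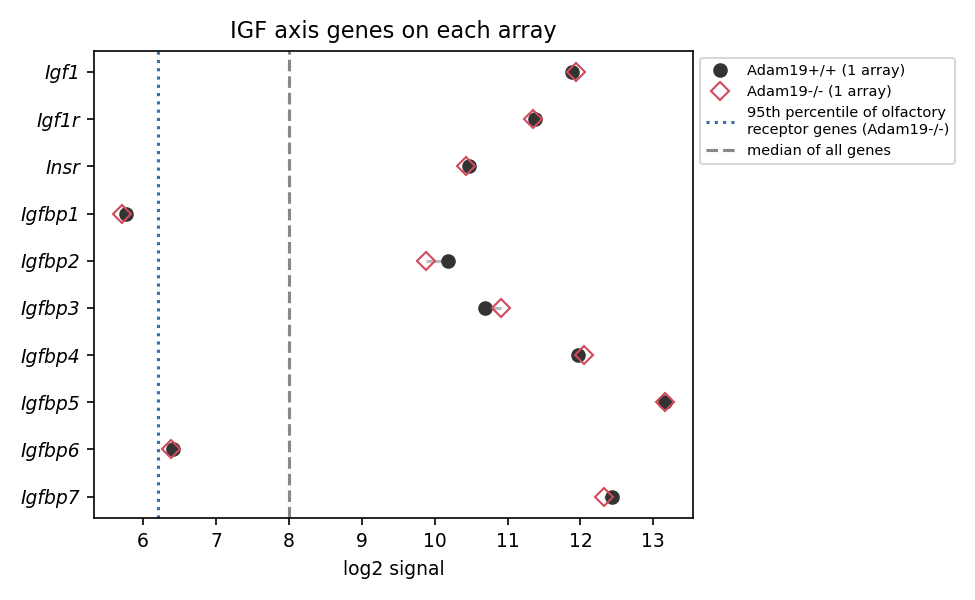
Log2 signal (horizontal axis) of the 10 IGF axis genes on the Adam19+/+ array (filled circles) and the Adam19-/- array (open diamonds), with lines at the median of all genes (dashed) and at the 95th percentile of olfactory receptor genes on the Adam19-/- array (dotted). In both genotypes, 8 genes lie right of the dashed line, Igfbp1 lies left of both lines and Igfbp6 lies between them, and Igfbp2 and Igfbp3 show the widest separation of symbols.

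The sorted cells gave a strong signal for most of the axis. Of the 10 members, 8 were in the brightest quartile of genes and the others were Igfbp1 and Igfbp6, both below the median. Ranks place a signal among all genes, but probes differ in how well they bind their targets, so they do not order transcripts by abundance. As a measure of signal without expression, 1015 olfactory receptor genes, which serve the nose, were taken. Their median was 4.87 in the control and 4.91 in the mutant sample, and their 95th percentiles were 6.13 and 6.20.

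Igf1, the ligand, gave 11.89 in the control and 11.94 in the mutant sample. It ranked 636th and 603rd of all genes and lay above every olfactory receptor gene. The difference of 0.05, or 1.04-fold, put it 7353rd by increase. Macrophages, a known source of Igf1, gave higher marker signals on the Adam19-/- array in 13 of 13 cases, with a median of 0.33. Their summed linear signal was 2280 and 3026, and the defining marker Ptprc, at 6.05 and 6.26, lay near the 95th percentile of olfactory receptor genes. Their part in the Igf1 signal was not tested. In bulk RNA of this kind, a different number of cells of a type and a different amount of RNA per cell cannot be told apart.

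The receptors differed little between the samples. Igf1r, the main signalling receptor for both IGFs, was at 11.38 and 11.35, a difference of -0.03, and ranked 1168th and 1232nd. Insr, the insulin receptor, was at 10.47 and 10.44, a difference of -0.04, and ranked 2909th and 3076th. A second cluster of Insr, at 9.79 and 9.77, gave -0.02. Both receptor genes were therefore slightly lower on the Adam19-/- array, by less than 1.03-fold, and the ratio of Igf1r to Insr signal was 1.01 times that on the Adam19+/+ array. Among the other receptor genes of the axis, Igf2r, which binds IGF2 and carries it to the lysosome, was at 12.50 and 12.47.

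Among the binding proteins the largest difference was that of Igfbp2, an IGF carrier that also binds integrins. It gave 10.18 in the control and 9.88 in the mutant sample, or 1159 and 944 as linear signal. The difference of -0.30 is 1.23-fold lower, and its rank moved from 3691st to 4685th. Igfbp2 had the 291st largest decrease of all genes and the 26th of the 4985 genes in the brightest quartile. It was the only member to differ by 1.2-fold or more, the threshold used here, so 1 of 10 members was lower by that much and 0 higher. Of all genes, 2.02% were lower and 5.07% higher by 1.2-fold or more. In the brightest quartile these shares were 0.802% and 1.91%. On the same array all 9 smooth muscle markers were lower, with a median of -0.13 and a summed linear signal of 30936 against 28358, and 7 of 8 Schwann cell and glial markers were lower, with a median of -0.12 and sums of 17993 and 16536. Their part in the Igfbp2 difference was not tested.

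Igfbp3, the main IGF carrier of blood plasma, differed the other way. It gave 10.70 in the control and 10.91 in the mutant sample, or 1659 and 1930 as linear signal. The difference of 0.22, or 1.16-fold, was the 1548th largest increase of all genes and the 189th of the brightest quartile, and its rank moved from 2384th to 1969th. It did not reach 1.2-fold. At 1.1-fold, Igfbp3 was the only member higher and Igfbp2 the only one lower, where 17.2% of all genes were higher and 8.26% lower. At 1.5-fold 0 members were counted, and 0.155% of all genes were higher and 0.0552% lower. Within the arrays, the ratio of Igfbp3 to Igfbp2 signal was 1.43 times as large in Adam19-/- as in Adam19+/+ cells, a figure from which any constant scaling between the arrays drops out. The pair holds the highest and lowest of the 10 differences, so no other pair of members gives a larger ratio.

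These sizes can be read beside the disagreement of probes within a gene. For 566 genes with 2 clusters above the median, the differences given by the 2 clusters lay a median of 0.05 apart, with a 95th percentile of 0.24. The difference of Igfbp2 was larger than this 95th percentile and that of Igfbp3 was not. The gap holds no variation between embryos, and each of these binding-protein genes had a single cluster.

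**Figure D2:**
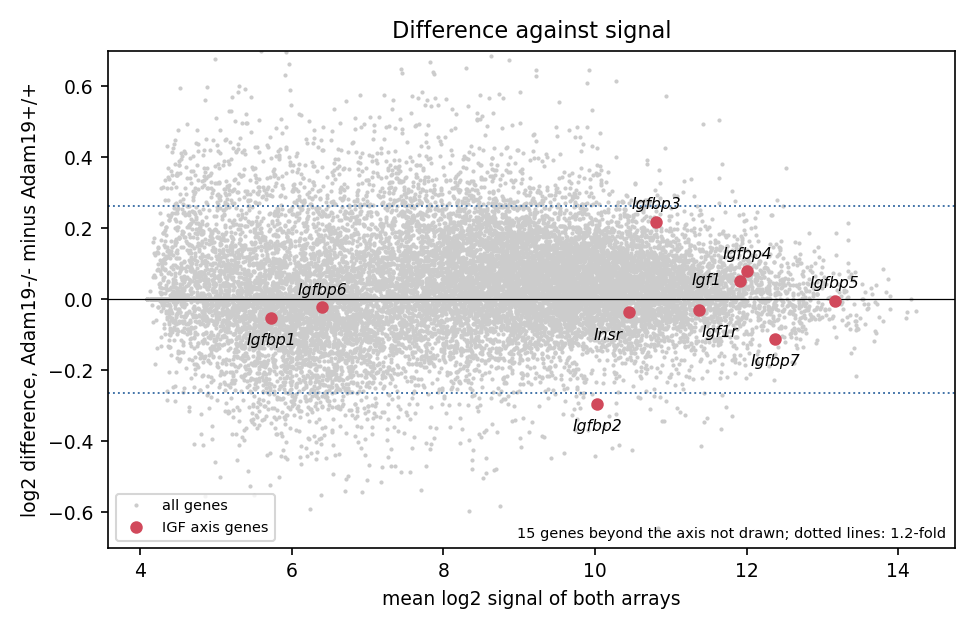
Log2 difference, Adam19-/- minus Adam19+/+ (vertical axis), against the mean log2 signal of both arrays (horizontal axis) for all genes (grey) and the 10 IGF axis genes (red), with dotted lines at 1.2-fold. Igfbp2 at -0.30 is the single member beyond a dotted line, Igfbp3 at 0.22 lies inside it, and the other 8 lie nearer to 0.

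The remaining binding proteins with a strong signal differed by less. Igfbp4, an inhibitory carrier cut by the protease PAPP-A, was at 11.97 and 12.05, a difference of 0.08. Igfbp5, which binds extracellular matrix and is also a target of PAPP-A, was at 13.17 and 13.16 and ranked 70th and 71st, the highest rank of the members. Its difference of -0.0034 became 0.02 after quantile normalisation, so it has no settled sign. Igfbp7, the low-affinity relative, was at 12.43 and 12.32, a difference of -0.11 or 1.08-fold lower, and the 337th largest decrease of the brightest quartile. Its rank was 284th and 338th.

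Of the neighbouring pairs, only Igfbp2 and Igfbp5 can be compared. Igfbp2 was lower by 0.30 on the log2 scale while Igfbp5, beside it, was lower by 0.0034. Igfbp1, the neighbour of Igfbp3 and a carrier made mainly by liver and decidua, was at 5.76 and 5.70, a difference of -0.05, and 89.2% and 86.7% of olfactory receptor genes were dimmer. Igfbp6, a carrier that prefers IGF2, was at 6.41 and 6.39 and brighter than 97.4% of them on the Adam19+/+ array. Its difference of -0.02 was 0.0035 after quantile normalisation. Background signal can compress differences of such dim genes, yet here dim genes differed more widely than bright ones. The central 95% of differences ran from -0.25 to 0.35 in the dimmest quartile, which holds Igfbp1. It ran from -0.30 to 0.37 in the next, which holds Igfbp6, and from -0.17 to 0.24 in the brightest. The differences of Igfbp1 and Igfbp6 therefore say little about their RNA.

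Over the 10 members the median difference was -0.03, with 3 higher and 7 lower on the Adam19-/- array, against 10303 higher and 6808 lower of all 19938 genes with a median of 0.0061. The remaining genes had equal values on both arrays. In the brightest quartile, which holds 8 of the members, the median difference was 0.03. The member counts include Igfbp5 and Igfbp6, whose signs changed after quantile normalisation, and 7 of the 10 differences were under 0.1. In the brightest quartile of all genes the central 95% of differences ran from -0.17 to 0.24. Igfbp2 lay outside that range, and the other 7 members of this quartile lay inside it.

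**Figure D3:**
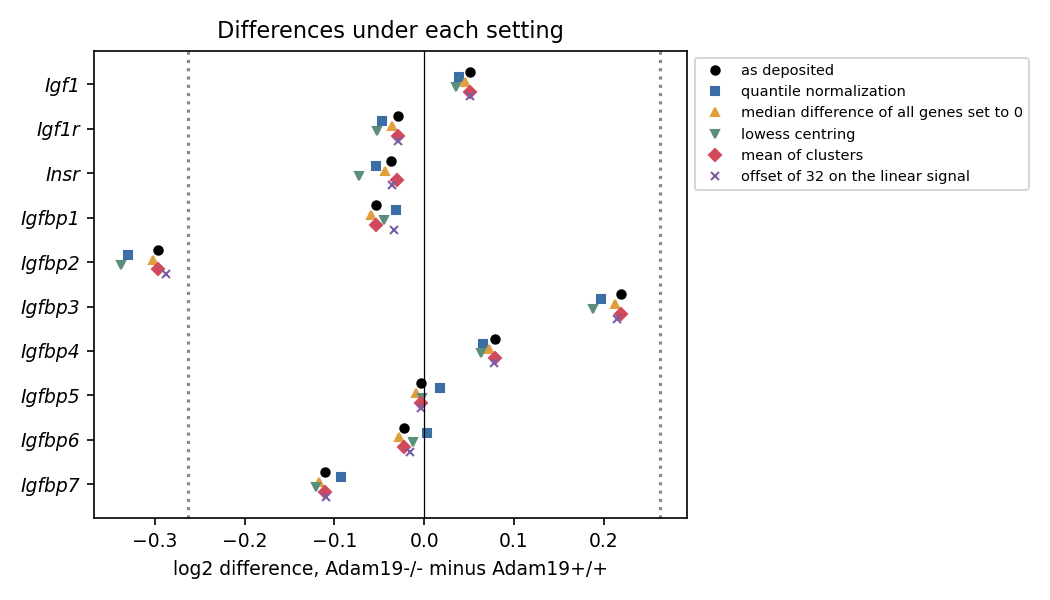
Log2 difference, Adam19-/- minus Adam19+/+ (horizontal axis), of each IGF axis gene in the deposited values and under 5 other settings (symbols), with dotted lines at 1.2-fold. Igfbp2 stays beyond the dotted line in each setting, from -0.34 to -0.29, Igfbp3 stays between 0.19 and 0.22, and Igfbp5 and Igfbp6 straddle 0. Averaging clusters can change only Insr, the member with 2 clusters.

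Other genes of the axis were also nearly level at the median, with a few further from 0. The 10 measured genes had a median difference of -0.02. Of them 3 were higher, 6 lower and 1 equal, and 0 reached 1.2-fold. Beside this count and those of the lists below, 5.07% of all genes were higher and 2.02% lower by that much. Igf2, the main fetal IGF and an imprinted gene, was at 13.89 and 13.90. Grb10, an imprinted adaptor that restrains both receptors, was at 13.12 and 13.06. Igf2bp1, which encodes an RNA-binding protein of Igf2 mRNA, was the furthest from 0, at 10.25 and 10.51, a difference of 0.26. Its dimmer second cluster, at 7.77 and 8.15, gave 0.37. Ins2, at 6.60 and 6.39, and Igfbpl1, an IGFBP-like gene, at 8.05 and 8.21, gave -0.21 and 0.15. The signal of Ins2 was about as dim as that of Igfbp6. Its difference lay inside the central 95% of the same quartile, from -0.30 to 0.37, and says little about its RNA.

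Proteases that cut the binding proteins, and the stanniocalcins that inhibit PAPP-A, were split evenly. The median over 8 genes was -0.0041, as 4 were higher and 4 lower, and 0 reached 1.2-fold. Pappa, which encodes PAPP-A, was at 8.09 and 8.34, a difference of 0.25 or 1.19-fold. Its relative Pappa2 was at 6.21 and 6.36, near the 95th percentile of olfactory receptor genes, with 2 further clusters at -0.03 and -0.05. Stc2, an inhibitor of PAPP-A, was at 6.61 and 6.72. Adam9, a protease able to cut IGFBP5, was at 10.92 and 10.84, a difference of -0.07.

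Genes of signalling below the receptors showed many small positive differences. The median over 25 measured genes was 0.05, with 20 higher and 5 lower, and 0 reached 1.2-fold. After centring on a lowess curve of difference against signal, the median was 0.0024. Over all genes the median difference was 0.03 in the brightest quartile and 0.05 in the next. Irs1 and Irs2, the adaptors that both receptors phosphorylate, differed in opposite ways. Irs1 was at 10.15 and 10.28, a difference of 0.13, and Irs2 at 9.95 and 9.73, a difference of -0.22. Foxo3, a transcription factor held out of the nucleus by IGF signalling, was at 10.05 and 10.25. The adaptors Grb2 and Shc1, which link the receptors to Ras, were higher by 0.19 and 0.15.

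Genes that FoxO factors induce when insulin and IGF signals are low were 6 higher and 4 lower out of 10, at a median of 0.02, and 0 reached 1.2-fold. Klhl24 was higher by 0.16 and Pik3ip1, an inhibitor of the PI3 kinase, by 0.15, while Bcl6 differed by -0.15 and Sesn1 by -0.11.

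Genes induced by low oxygen, among which Igfbp1 and Igfbp3 are also known, had the largest median difference of the 5 pathway lists. Without the binding proteins the list had 12 genes and a median of 0.20. Of these, 10 were higher and 2 lower. Beside 5.07% of all genes, 4 of the 12 were higher by 1.2-fold or more. These were the mitophagy receptor Bnip3 at 0.80, the kinase Pdk1 at 0.52, the oxygen sensor Egln3 at 0.38 and the glucose transporter Slc2a1 at 0.34. Igfbp3, at 0.22, was close to the median of this list, but a link between them was not tested. The list ran from -0.11 for Ndrg1 to 0.80 for Bnip3. Marker lists of erythroid cells and cartilage had medians of 0.19 and 0.17, and that of macrophages and leukocytes had 0.33. Igfbp1 cannot be placed beside the hypoxia list, since its signal lay in the range of olfactory receptor genes. The list was known from earlier results of these data to be higher. Its place among the 5 pathway lists is therefore not an independent result.

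**Figure D4:**
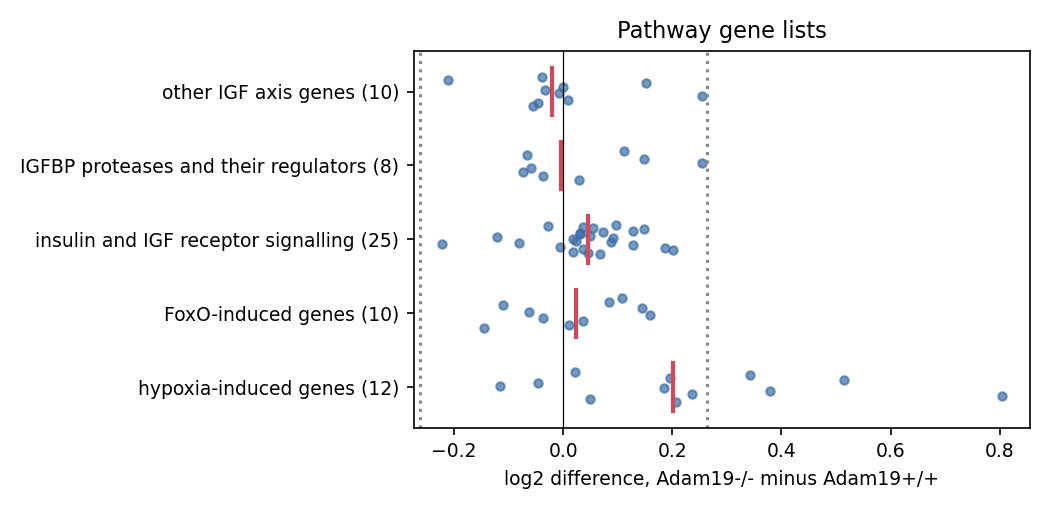
Log2 difference, Adam19-/- minus Adam19+/+ (horizontal axis), of the measured genes of 5 pathway lists (blue points, number in brackets), with red bars at the list medians and dotted lines at 1.2-fold. The 4 lists of the IGF pathway have no gene beyond a dotted line and medians from -0.02 to 0.05, whereas hypoxia-induced genes reach 0.80.

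Marker genes of several cell types and of sex also differed in signal between the samples. Besides the leukocyte markers, 11 of 14 cardiomyocyte markers were higher, with a median of 0.16 and summed linear signals of 10463 and 11193. Of 10 endothelial markers 6 were higher, 3 lower and 1 equal, where 10303 of all 19938 genes were higher. Their median was 0.16, with sums of 5114 and 5232, and the 3 lower were Esam at -0.14, Npr3 at -0.12 and Emcn at -0.09. Of 8 cartilage markers 6 were higher, with a median of 0.17. Of 10 autonomic neuron markers, a type that descends from the neural crest, 7 were higher, with a median of 0.12 and sums of 16546 and 17695. The catecholamine enzymes Th at 0.46 and Dbh at 0.43 were the highest. The 3 lower were Prph at -0.11, Chrna3 at -0.10 and Stmn2 at -0.02, and Elavl4 was level at 0.0036. The 3 measured Y-linked genes were each lower, from -1.17 for Kdm5d to -1.62 for Eif2s3y. Eif2s3y, Uty and Kdm5d had the 2nd, 3rd and 4th largest decreases of all 19938 genes, after Adam19. On the Adam19+/+ array they gave 8.63, 9.03 and 8.82. Xist, which is made from the silenced X chromosome of females, gave 11.25 and 11.14 and so differed by -0.11. The Adam19+/+ array therefore held signal of both Xist and Y-linked genes. The sex of the embryos is not stated in the labels, and the part of these differences in the values of Igfbp2 and Igfbp3 was not tested.

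**Figure D5:**
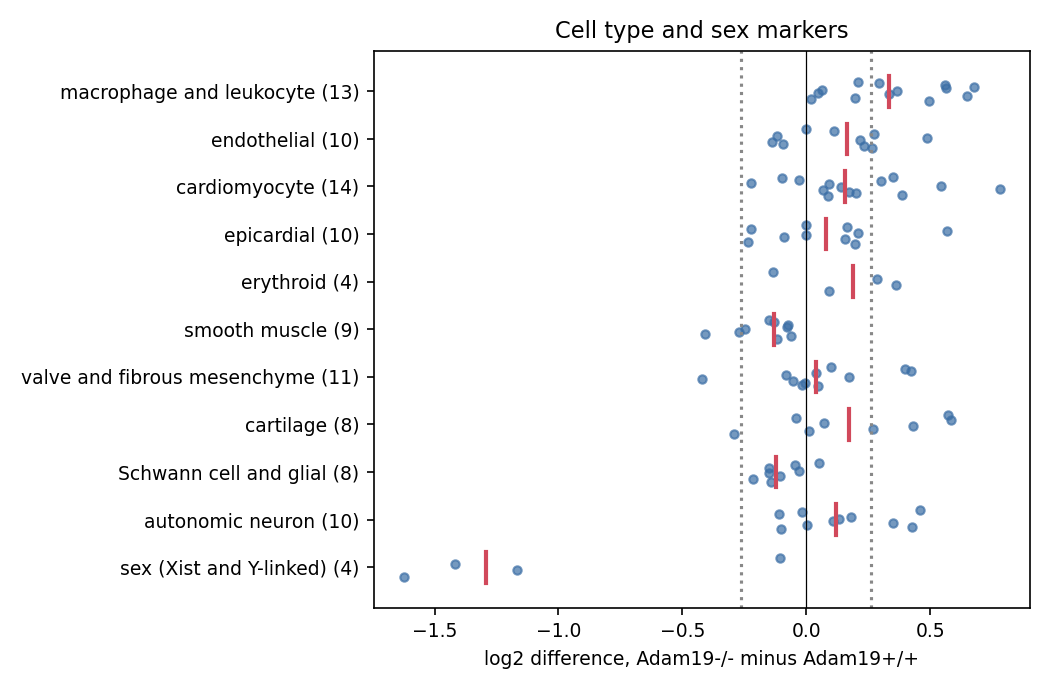
Log2 difference, Adam19-/- minus Adam19+/+ (horizontal axis), of measured markers of 10 cell types and of sex (blue points, number in brackets), with red bars at the list medians and dotted lines at 1.2-fold. All 13 leukocyte markers lie right of 0, all 9 smooth muscle markers left of it, and the 3 Y-linked genes lie between -1.62 and -1.17.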

How the data were processed

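The authors deposited a table of log2 signals for 28853 transcript clusters, 1 column per array. The log base was inferred from the range of 4.09 to 14.52. How background, normalisation and probe summary were handled is not stated in the file header or labels, and the values were not normalised again. Clusters were named through a platform annotation of 2016 and, by Entrez identifier, RefSeq symbols: 21789 had 1 symbol, 1621 several and 5443 none, and 21698 of the first matched RefSeq. Clusters without a single symbol were left out, and the brightest cluster stood for a gene. Differences are Adam19-/- minus Adam19+/+. With n = 1 per genotype no test was made, and the number of arrays limits precision.

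The text names all members and, of each pathway list, up to 4 genes with the largest absolute difference, with Igf2, Igf2r, Grb10, Irs1, Irs2 and Pappa. Examples of markers were chosen after their values were seen, and the promoter motifs after the sequences were seen. Members and lists were chosen with earlier results of these data known. Counting was tested on simulated data. Marker lists of epicardial cells (median 0.08 over 10 genes), erythroid cells (0.19 over 4) and valve and fibrous mesenchyme (0.04 over 11) were also measured. Likeness of other genes' patterns was not computed over 2 arrays. Some list genes are not analysed here. Python 3.11.15, pandas 2.3.3, numpy 2.4.6, statsmodels 0.14.6 and matplotlib 3.10.9 were used.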

Additional observations from a re-analysis of the deposited data

How the results depend on the processing

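Alternatives were quantile normalisation, setting the median difference of all genes to 0, centring on a lowess curve (span 0.3), averaging a gene's clusters, adding 32 to the linear signal, other fold thresholds and keeping genes with a mean above the median. Igfbp2 was lower by 1.2-fold or more under each of the 5 that recompute differences, from -0.34 to -0.29, and Igfbp3 ranged from 0.19 to 0.22. Averaging clusters could not change these genes, which have 1 cluster each. Setting the median to 0 moved every gene by only 0.0061, and adding 32 changes bright genes little. Quantile normalisation gave -0.33 for Igfbp2 and 0.20 for Igfbp3, and lowess centring gave -0.34 and 0.19. At 1.1-fold the members counted as higher were 1 instead of 0, and at 1.5-fold those counted as lower were 0 instead of 1. With 32 added, 525 genes in place of 1010 were higher by 1.2-fold and 182 in place of 403 lower. Quantile normalisation turned the signs of Igfbp5 (0.02) and Igfbp6 (0.0035), which were not counted as different. A count was called moved when it changed by more than 1.5-fold, or between 0 and a positive number, and only counts moved. With no replicates, a difference or list median was called moved when it shifted by 0.11, the SD of the gap between clusters of a gene. That gap holds no spread between samples and is one of single genes, so list medians, which shifted by less, are not shown to be stable by it. The medians of the FoxO list (-0.01 to 0.05) and of the protease list (-0.06 to 0.0030) changed sign between settings. No replicate could be left out. No paired analysis was possible because each genotype had 1 array.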
